A study of Mus musculus with 33 samples.

Results

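These results concern the 11 mAG-hGem negative heart cells of embryonic day 14.5 (E14.5), out of 33 single cells in the series. The sides were chosen by 1 measured value, the level of Ect2 in CPM, which are counts of a gene per 1000000 counts of its cell. The 3 cells N10, N21 and N24 had at least 10 CPM and are called Ect2-high, and the 8 cells N3, N5, N7, N8, N23, N25, N28 and N30 had less and are called Ect2-low. Ect2, which activates small GTPases at the cleavage furrow during cytokinesis, lies at chr3:27097222-27154253 (GRCm38.p6). It stood at 61.5 CPM in N10, 239 CPM in N21 and 121 CPM in N24, and at 0 to 0.178 CPM in the Ect2-low cells. The cell just inside the threshold was N10 and the one just outside was N30, at 0.178 CPM. These values chose the sides, so Ect2 is given here as a description and appears in no result below.

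The study sorted single ventricular cells at E14.5 and at postnatal day 5 from mice with mAG-hGem, the Azami Green and human geminin fusion of the FUCCI system. Cells entered the series if a PCR found Tnnt2, the cardiac troponin T, and a PCR for a marker of non-muscle cells was negative. All 11 cells share the transgene, the age and the ventricular source, and differ by label only in the number of their title. The 10 E14.5 mAG-hGem positive cells serve as a range beside them. No label names the animal or litter, so each side is 1 sample without replicates, no test was possible, and no p-value is given. Strain and the promoter of the reporter are not given in the sources used here.

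Geminin binds the licensing factor Cdt1 and is destroyed by the anaphase-promoting complex at the end of mitosis and through G1. A geminin fusion therefore glows from S phase to mitosis, and a cell without the green signal is read as being in G1 or out of the cycle. Replication genes are mostly transcribed around the G1/S boundary under E2F factors. Genes of mitosis are transcribed later, under the DREAM, B-Myb and FoxM1 complexes that act through a CHR element, often next to CCAAT boxes. Ect2, cyclin B and the central spindle genes belong to the later set.

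The upstream sequence of 4 genes is shown because N24 held these replication and division genes at levels above every Ect2-low cell, so that a reader can see the elements named above. The sequences are 150 bases ending at the start of the first promoter listed for the gene. They come from RefSeq promoters of GRCm38.p6 and are written 5′ to 3′ on the strand of the gene. For Mki67 the annotated gene reaches to chr7:135716450, so part of its stretch lies inside the gene. For each family they are the 2 genes of N24 with the widest gap to the Ect2-low cells that hold a match. Capitals mark E2F letters in Cdc6 and Mcm6, and CHR letters in Mki67 and Ska3.
Cdc6 (chr11:98908001-98908150, plus strand): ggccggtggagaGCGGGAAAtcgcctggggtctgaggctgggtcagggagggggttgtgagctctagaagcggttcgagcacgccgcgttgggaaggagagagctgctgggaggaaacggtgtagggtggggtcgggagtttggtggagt
Mcm6 (chr1:128359706-128359855, minus strand): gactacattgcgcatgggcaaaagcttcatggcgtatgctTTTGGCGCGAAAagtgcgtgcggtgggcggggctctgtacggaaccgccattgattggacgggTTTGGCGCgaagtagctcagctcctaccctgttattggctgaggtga
Mki67 (chr7:135716380-135716529, minus strand): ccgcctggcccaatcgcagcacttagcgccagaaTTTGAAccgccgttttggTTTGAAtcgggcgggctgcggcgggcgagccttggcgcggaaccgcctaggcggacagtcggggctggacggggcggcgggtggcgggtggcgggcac
Ska3 (chr14:57826164-57826313, minus strand): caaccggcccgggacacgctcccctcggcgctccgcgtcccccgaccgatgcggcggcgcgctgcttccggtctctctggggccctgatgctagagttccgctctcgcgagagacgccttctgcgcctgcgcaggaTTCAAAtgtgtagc
The E2F letters searched were TTTCCCGC, TTTCGCGC, TTTGCCGC and TTTGGCGC, those of CHR were TTTGAA, and both strands were read over 250 bases before to 50 bases after the start. E2F matches on opposite strands can overlap, as in Mcm6. Of the 80 genes of the licensing and DNA replication lists, 64 matched a promoter, and 23 of these (35.9%) held E2F letters, against 2.61% of all 27025 genes with a window. Of the 99 genes of the mitotic and spindle lists, 81 matched, and 49 (60.5%) held CHR letters, against 20.2% of all genes. CHR together with CCAAT stood in 41 of the 81 (50.6%), against 7.97% of all genes. Matches were no more frequent among the genes that N24 held at least 2-fold above every Ect2-low cell, with E2F letters in 7 of 20 (35.0%) and 16 of 44 of the others (36.4%), and CHR letters in 20 of 37 (54.1%) and 29 of 44 (65.9%). A match describes letters and is not a bound site.

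Depth and cell identity came first. Totals ran from 12.4 to 23.3 M counts (1 M is 1000000 counts) in the Ect2-high cells and from 5.99 to 34.4 M in the Ect2-low cells, with 54.5 and 141 M summed. A cell had a read in 5521 to 8876 genes, and a count of 0 allows 0.0872 to 0.501 CPM (3 counts of the cell's total). Tnnt2 stood at 2822, 4572 and 2861 CPM in N10, N21 and N24, and at 362 to 7633 CPM in the Ect2-low cells, with N3 the lowest. Of the 34 sarcomere genes, 24 to 31 reached 10 CPM in each of the 11 cells. The defining endothelial gene Cdh5 and the epicardial gene Upk3b were at 0 in all 11 cells. Other endothelial and epicardial markers were present in N10, at sums of 249 and 1448 CPM that are given with that cell. Reads come from antisense RNA amplification, so intervals and floors cover counting error only.

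Summed over the sides, 3032 of 11536 genes tested (26.3%) were at least 2-fold higher in Ect2-high cells and 4423 (38.3%) at least 2-fold lower, and the median log2 ratio of all genes was -0.32. The median gene thus stood below 0, and list medians are read beside that value. Because 1 cell can carry a pooled ratio, the cells are described one at a time. N10 held 610 genes (5.29%) at 10 CPM or more and at least 2-fold above every Ect2-low cell. N21 held 692 such genes (6%) and N24 held 578 (5.01%). At least 2-fold below every Ect2-low cell were 161 genes of N10 (1.4%), 238 of N21 (2.06%) and 151 of N24 (1.31%).

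N24 was the Ect2-high cell with a broad set of replication and division transcripts, whereas N10 and N21 had few of either. Of the 80 licensing and replication genes, 65 reached 10 CPM in N24, 22 in N10 and 14 in N21, and 8 to 58 in the Ect2-low cells. The mAG-hGem positive cells had 28 to 71 of them, with a median of 52. Of the 99 mitotic and spindle genes, 66 reached 10 CPM in N24, 7 in N10, 7 in N21 and 8 to 29 in the Ect2-low cells. Positive cells had 64 to 90, with a median of 85.5. N24 thus lay inside the range of the positive cells for both sets, near its lower end for the division genes. It exceeded every Ect2-low cell at least 2-fold in 28 of the 80 replication and 47 of the 99 division genes, beside 5.01% of all genes.

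**Figure D1:**
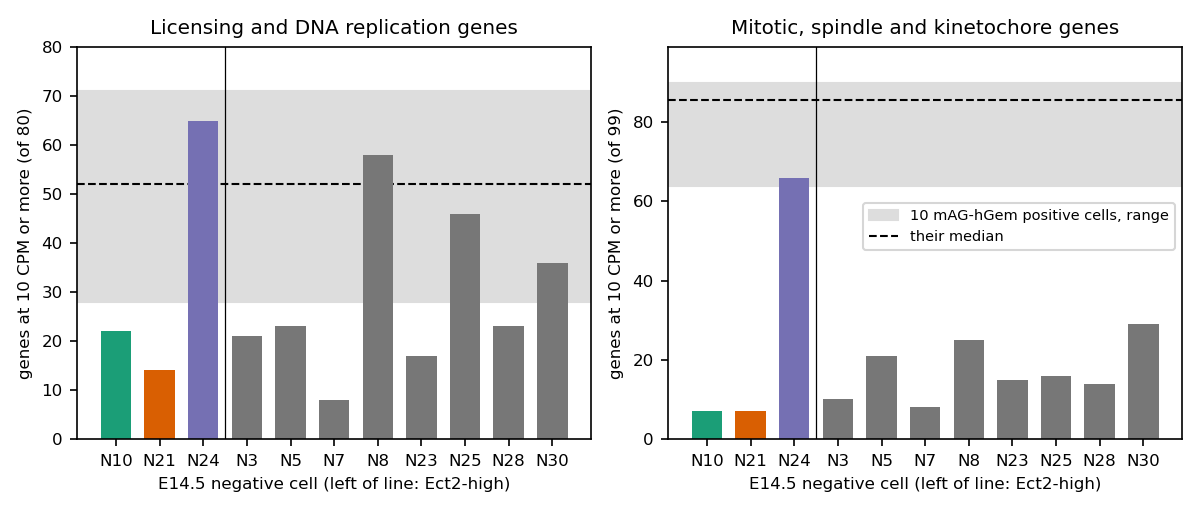
Number of licensing and DNA replication genes (left, of 80) and of mitotic, spindle and kinetochore genes (right, of 99) at 10 CPM or more in each E14.5 negative cell. Bars are single cells, colours mark the Ect2-high cells, and the grey band and dashed line give the range and median of the 10 positive cells; N24 reached 65 and 66 genes, and N8, N25 and N30 reached 58, 46 and 36 on the left.

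In origin licensing, the loading of MCM helicases before S phase, the summed level was 8379 CPM in N24, 924 CPM in N10 and 547 CPM in N21. Ect2-low cells ranged from 331 to 2886 CPM and positive cells from 905 to 5209 CPM, so the sum of N24 stood above both ranges. Mcm4 alone gave 49.2% of that sum. By number of licensing genes at 10 CPM or more, N24 had 18, inside the 3 to 20 of Ect2-low cells. Positive cells had 9 to 23 of them, with a median of 17.5. Mcm4, a helicase subunit at chr16:15623897-15637400, was at 4120 CPM in N24, 1.34 CPM in N10 and 0 in N21, and the Ect2-low cells had a lowest, median and highest value of 0, 54.9 and 1142 CPM. Cdt1, which loads the helicase, was at 345 CPM in N24 and at 0 in N10 and N21, against 0, 13.6 and 134 CPM. Cdc6, its partner in loading, was at 112 CPM in N24, at 0 in the other 2, and at no more than 3.14 CPM in any Ect2-low cell. Its median in the positive cells was 0, with a highest value of 49.7 CPM, so this cell exceeded them as well. Gmnn, which encodes the mouse's own geminin, was at 177 CPM in N24, 0.0534 CPM in N10 and 0.0804 CPM in N21, and at 0, 66.7 and 262 CPM in the Ect2-low cells. The Ect2-low cells N30 and N25 had more Gmnn than N24, at 262 and 205 CPM, and N24 lay within the 29.7 to 213 CPM of the positive cells.

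The E2F and cyclin E genes that start S phase followed the same cell. Ccne1 stood at 54.6 CPM in N24, 0.0534 CPM in N10 and 0 in N21, with at most 4.97 CPM in Ect2-low cells. Ccne2 stood at 188 CPM in N24, 0 in N10 and 5.79 CPM in N21, with at most 41.8 CPM in Ect2-low cells. E2f1, an activator, was at 79.8 CPM in N24 and 0 in N10 and N21. E2f8, a later E2F repressor, was at 242 CPM in N24 and 0 in both others, and among the Ect2-low cells only N30 reached 10 CPM, at 18.3 CPM. Mybl2, the B-Myb gene, was at 130 CPM in N24 and at most 0.089 CPM in every other negative cell, and 35.5 CPM was its highest value among the positive cells. Of the 19 genes tested in the list of G1 cyclins and entry, 7 of N24 exceeded all Ect2-low cells at least 2-fold, and 1 each of N10 and N21. Over all genes these shares were 5.01% in N24, 5.29% in N10 and 6% in N21.

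DNA replication and nucleotide genes summed to 20751 CPM in N24, 2250 CPM in N10 and 2440 CPM in N21. Ect2-low cells ranged from 1046 to 4275 CPM and positive cells from 1247 to 15419 CPM. Pcna, the sliding clamp of DNA polymerase, was at 7218 CPM in N24, 540 CPM in N10 and 2.33 CPM in N21, against 97.8, 495 and 1068 CPM in the Ect2-low cells. N21 thus had the lowest Pcna of all 11 cells and N24 the highest. Rrm2, a ribonucleotide reductase subunit, was at 699 CPM in N24, 0.588 CPM in N10 and 0.0804 CPM in N21, against 0, 22.1 and 123 CPM. Pole, a leading-strand polymerase subunit, was at 127 CPM in N24 and at most 0.0445 CPM in every other negative cell. Brip1, a helicase of recombination repair at chr11:86058136-86201215, was at 441 CPM in N24 and at most 0.204 CPM in the others, while positive cells reached 35.4 CPM. Replication-linked histones did not accompany these genes, at a sum of 54.4 CPM in N24 against 75.0 to 2391 CPM in the Ect2-low cells. Histone genes have near-identical copies that can share reads, and their main transcripts lack poly(A) tails.

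Mitotic cyclins and kinases summed to 3262 CPM in N24, 501 CPM in N10 and 309 CPM in N21, against 254 to 1718 CPM in Ect2-low and 1852 to 12352 CPM in positive cells. N24 held part of this programme. Cdk1, the mitotic kinase, was at 791 CPM in N24, 0.908 CPM in N10 and 55.1 CPM in N21, against 0, 15.2 and 136 CPM. Ccna2, cyclin A2, was at 199 CPM in N24, 0.214 CPM in N10 and 0.402 CPM in N21, against 0, 2.49 and 99.6 CPM. Fbxo5, the inhibitor of the anaphase-promoting complex called Emi1, was at 814 CPM in N24, 0.16 CPM in N10 and 0 in N21, and N3 was the 1 Ect2-low cell above 10 CPM, at 127 CPM. The B cyclins were the exception, with Ccnb1 and Ccnb2 at 0 in N24. Positive cells had 9.64 to 1311 CPM of Ccnb1 and 55.9 to 776 CPM of Ccnb2. Plk1, Aurka and Cdc20 also had no read in N24, whereas Bub1 (67.2 CPM), Ttk (45.3 CPM) and Nek2 (62.6 CPM) were present. At a floor of 3 counts, N24 could have held up to 0.129 CPM of the absent genes.

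Spindle, kinetochore and chromosome genes summed to 8265 CPM in N24, 827 CPM in N10 and 474 CPM in N21, against 449 to 2092 CPM in Ect2-low and 3570 to 23367 CPM in positive cells. Mki67, which coats mitotic chromosomes and lies at chr7:135689784-135716450, was at 263 CPM in N24 and at most 0.0593 CPM in the other 10 negative cells. Top2a, the topoisomerase that untangles chromosomes, was at 265 CPM in N24, with at most 2.65 CPM elsewhere among negative cells. Ska3, a kinetochore protein, was at 220 CPM in N24 and at most 0.133 CPM in the others. The positive cells had 77.5 to 1825 CPM of Mki67, 94.5 to 1473 CPM of Top2a and 13.1 to 123 CPM of Ska3, so N24 was within the first pair of ranges and above the third. Some genes of late G2 and mitosis were near 0 in N24, among them Cenpe at 0.172 CPM, Hmmr at 0 and Cenpf at 7.33 CPM, where the lowest positive cells had 14.4, 18.6 and 12.6 CPM. Of the 62 spindle genes tested, 46 (74.2%) were at least 2-fold higher and 7 (11.3%) lower in the pooled ratio. Over all genes these shares were 26.3% and 38.3%. The median log2 ratio of the list was 3.75, and N24 gave 90.0% of its Ect2-high counts. Without N24 the median was -5.74, beside -0.75 over all genes.

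**Figure D2:**
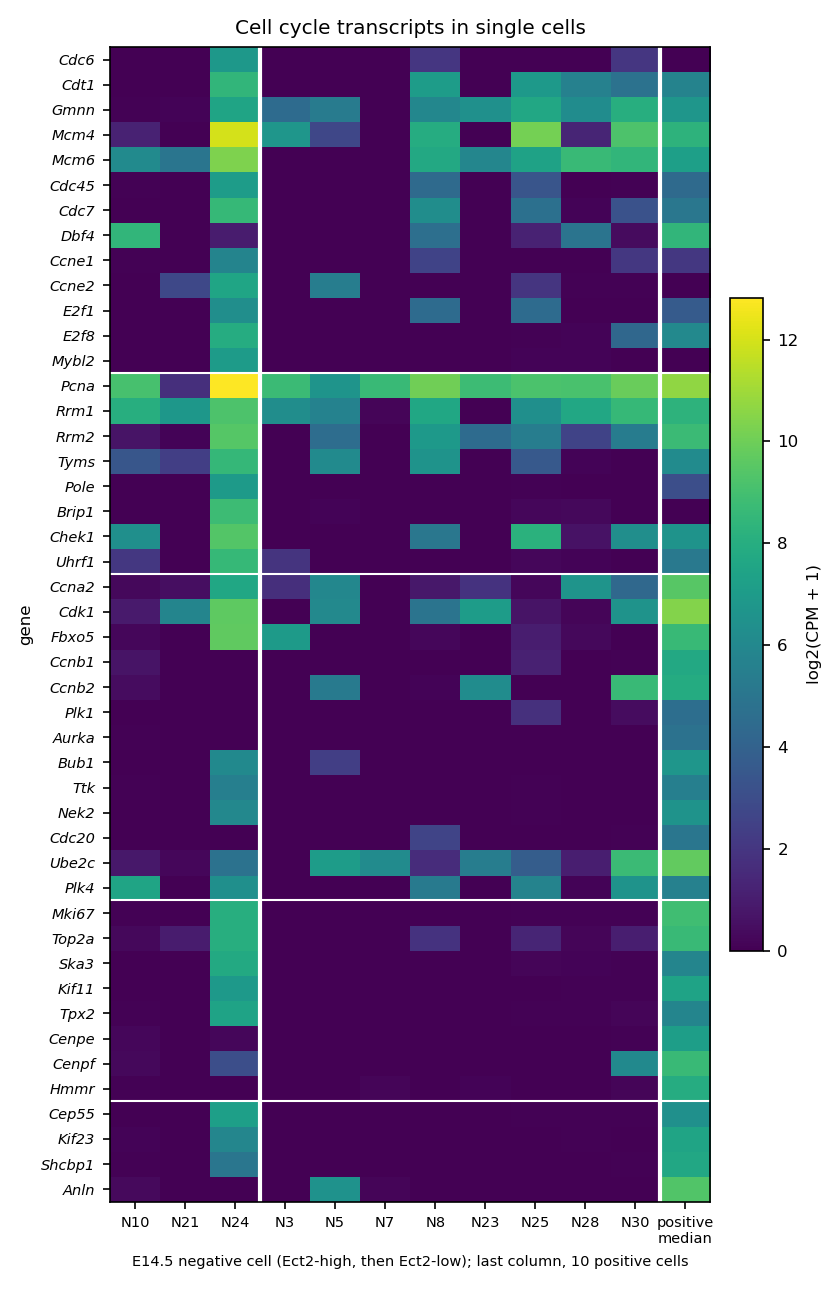
Level of 46 cell cycle genes as log2(CPM + 1) in the 11 E14.5 negative cells, with the median of the 10 positive cells in the last column. White lines separate the Ect2-high cells, the Ect2-low cells and gene groups (licensing and G1/S, replication, mitotic regulators, chromosome and spindle, cytokinesis); the N24 column is filled for most genes from Cdc6 to Tpx2, while Ccnb1, Ccnb2, Plk1 and Hmmr are at 0 and Aurka and Cdc20 are dark as well.

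Cytokinesis genes, the set that Ect2 itself belongs to, summed to 2420 CPM in N10, 4589 CPM in N21 and 2088 CPM in N24, and to 1462 to 2232 CPM in the Ect2-low cells. Positive cells had 2361 to 7072 CPM. N24 held midbody and central spindle genes, with Cep55 at 152 CPM, Arhgap11a at 104 CPM, Kif23 at 58.7 CPM and Shcbp1 at 31.6 CPM. In N10 these were at 0 to 4.27 CPM, in N21 at 0, and in Ect2-low cells at most 0.0593 CPM. Anln and Racgap1, the anillin scaffold and the Ect2 partner of the central spindle, were at 0 and 1.03 CPM in N24, below the 329 and 14.0 CPM of the lowest positive cells. N21 carried none of these but had Rock1, a kinase of actomyosin contraction, at 805 CPM, Rab11a, of recycling endosomes, at 790 CPM, and Vps4b, of the abscission machinery, at 360 CPM. The highest Ect2-low cells had 657, 314 and 151 CPM of these 3 genes, which are not restricted to dividing cells. The list's median log2 ratio was 0.21, with 11 of 38 genes (28.9%) at least 2-fold higher and 13 (34.2%) lower, shares near the 26.3% and 38.3% of all genes. Without N21 it was -0.54, beside -0.64 over all genes.

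N21 had the highest Ect2 of the 11 cells and few replication and division genes, at 14 of 80 and 7 of 99. Its replication sum of 2987 CPM lay inside the 1377 to 6992 CPM of the Ect2-low cells, and its division sum of 783 CPM near the lowest of them, 703 CPM. With the cytokinesis genes added, the sum was 5372 CPM and exceeded 7 of the 8 Ect2-low cells. Of the CDK inhibitor and quiescence list, 3 of 22 genes of N21 lay at least 2-fold above all Ect2-low cells, beside 6% of all genes. Of the 22, 7 were above the Ect2-low median and 13 below it. The list's sum was 4778 CPM, next to at most 4433 CPM in Ect2-low cells, and 1 gene gave 77.0% of it. That gene was Cdkn1c, the p57 inhibitor encoded at chr7:143458339-143461059, which was at 3679 CPM in N21, 553 CPM in N10 and 244 CPM in N24, against 99.0, 447 and 583 CPM in the Ect2-low cells. Cdkn1a, the p21 inhibitor, was at 88.9, 10.6 and 7.33 CPM in N21, N10 and N24, with at most 45.5 CPM in Ect2-low cells. Rb1, the retinoblastoma gene, was at 270 CPM in N21, 43.9 CPM in N10 and 0.0429 CPM in N24, with at most 60.7 CPM in Ect2-low cells. Cdkn2b, which had no read in any other E14.5 cell, was at 32.1 CPM. In contrast, Cdkn1b, the p27 inhibitor, was at 0.161 CPM and Tob1, an antiproliferative gene, at 0.0804 CPM in N21, against Ect2-low medians of 25.8 and 160 CPM. N21 was also the cell with the most Myc, a growth regulator, at 833 CPM, next to 174 CPM in N10, 0 in N24 and at most 57.1 CPM in Ect2-low cells. Hist1h2bc, a histone H2B gene, was at 576 CPM in N21 and at most 109 CPM in Ect2-low cells.

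Outside the cycle, N21 held genes that were near 0 in most or all other negative cells. Gal, the neuropeptide galanin at chr19:3409915-3414544, was at 1868 CPM in N21 and at most 0.369 CPM in the other 10 cells, and at 0 in all positive cells. Robo2, an axon guidance receptor, was at 571 CPM, Kcnmb4, a potassium channel subunit, at 501 CPM, Lrrtm4, a synaptic adhesion protein, at 437 CPM, and the homeobox gene Hoxb3 at 356 CPM. Each stood at most at 1.71 CPM elsewhere among the negative cells. In the positive cells Kcnmb4 reached 245 CPM, with 3 cells at 10 CPM or more. Robo2 reached 21.9 CPM and Hoxb3 16.4 CPM there, and Lrrtm4 was at 0. Tbx3, a transcription factor of the conduction system, was at 174 CPM in N21, 13.1 CPM in N10, 0 in N24 and at most 0.401 CPM in Ect2-low cells. At the other end, Ppargc1a, the PGC-1alpha coactivator of mitochondrial genes, was at 1.37 CPM in N21, 436 CPM in N10 and 154 CPM in N24, against 390, 897 and 1647 CPM in the Ect2-low cells. Bves, a cardiac membrane protein, was at 0 in N21 and at 134 to 464 CPM in Ect2-low cells, and Dnaja2, a chaperone, was at 0.644 CPM against 311 to 969 CPM. Igf2, Igf2's neighbour H19 and Mef2c were also low, at 0.804, 0.161 and 1.13 CPM. Ribosomal protein genes summed to 39240 CPM in N21, against 60151 to 83433 CPM in Ect2-low cells. Of 81, 75 had 10 CPM in every Ect2-low cell, and 10 lay at least 2-fold below all of those cells in N21. Over all 11536 genes, 1335 had that level and 238 lay so far below, a larger share than among the ribosomal protein genes. Of the leukocyte list, Lyz2 and Lyz1 were at 379 and 168 CPM in N21 and at 43.7 and 97.1 CPM in N10, with Csf1r at 0 in all 11 cells.

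N10 was marked by fibroblast genes on top of sarcomere genes. The fibroblast list summed to 66091 CPM in N10, 5030 CPM in N21 and 6082 CPM in N24, against 2265 to 4287 CPM in Ect2-low and 1536 to 7130 CPM in positive cells. Of its 34 genes tested, 23 in N10 exceeded all Ect2-low cells at least 2-fold, and 2 in N21 and 1 in N24 did. Over all genes tested these shares were 5.29% in N10, 6% in N21 and 5.01% in N24. Postn, the matrix protein periostin at chr3:54359267-54391041, made up most of the sum, at 41228 CPM in N10, 0 in N21 and 0.0429 CPM in N24, with at most 6.52 CPM in Ect2-low cells. The collagens Col3a1 and Col1a2 were at 2432 and 1400 CPM, decorin (Dcn) at 967 CPM, and the transcription factors Meox1, Tcf21 and Sox9 at 720, 530 and 441 CPM. In N21, N24 and the Ect2-low cells these genes were at most at 0.415 CPM. The fibroblast receptor gene Pdgfra was at 0 in all 11 cells. The median log2 ratio of the list was 8.02, or 7.32 with the 9 genes that had no count on a side at their bounds, and -0.50 without N10. The all-gene median without N10 was -0.76.

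Markers of other cell types also moved with N10. Endothelial and endocardial markers summed to 249 CPM in N10, 26.1 CPM in N21 (all from Kdr), 7.46 CPM in N24 and at most 25.1 CPM in Ect2-low cells, from Nfatc1 (103 CPM), Ramp2 (87.9 CPM), Fli1 and Cytl1, with Pecam1 and Cdh5 at 0. Epicardial markers summed to 1448 CPM in N10 against 0.239 to 392 CPM in Ect2-low cells, with Wt1 at 332 CPM and Tbx18 at 461 CPM. The largest part of the N10 sum, 36.6%, came from Tcf21, which is also in the fibroblast list. Its sarcomere list summed to 48891 CPM, inside the 36816 to 65375 CPM of the Ect2-low cells. The part of a second cell's RNA in these values was not tested. Of N10's cycle genes, Dbf4, the activator of the Cdc7 kinase, was at 346 CPM, Plk4, of centriole duplication, at 180 CPM and Chek1, a checkpoint kinase, at 81.1 CPM. Positive cells had 11.4 to 849, 8.84 to 204 and 0 to 237 CPM of these. Mki67 and Top2a were at 0.0534 and 0.214 CPM in N10, and Pcna at 540 CPM was near the Ect2-low median of 495 CPM.

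Among the Ect2-low cells, N8, N25 and N30 carried replication transcripts, with Ect2 at 1, 1 and 3 reads. They had 58, 46 and 36 of the 80 licensing and replication genes at 10 CPM or more, within the 28 to 71 of the positive cells, and the other 5 Ect2-low cells had 8 to 23. Their sums over these genes were 6253, 6992 and 4957 CPM, against 1377 to 2914 CPM in the other 5 and 29129 CPM in N24. In N25 Mcm4 was at 1142 CPM, Mcm3 at 468 CPM and Chek1 at 291 CPM. In N8 Pcna was at 1068 CPM, Mcm6 at 214 CPM, Cdt1 at 134 CPM and Rrm2 at 123 CPM. In N30 Mcm4 was at 601 CPM, Orc6, of the origin recognition complex, at 449 CPM, and Mcm6 at 349 CPM. These 3 cells had 25, 16 and 29 of the 99 mitotic and spindle genes, below the lowest positive cell at 64.

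Some mitotic transcripts were also present in N30, N23 and N5, which had 29, 15 and 21 of the 99 mitotic and spindle genes at 10 CPM or more. Ube2c, the ubiquitin-conjugating enzyme of the anaphase-promoting complex, was at 424 CPM and Ccnb2 at 418 CPM in N30, with 27.96 and 0 CPM in N24. N23 had Birc5, the survivin gene, at 606 CPM, Cdk1 at 136 CPM and Ccnb2 at 73.0 CPM, against 455, 791 and 0 CPM in N24. N5 had Ube2c at 134 CPM, Anln at 90.7 CPM and Cdk1 at 63.5 CPM. Mki67 stood at most at 0.0593 CPM in each of these cells. No gene of the licensing, replication, mitotic or spindle lists was at 10 CPM or more in all 3 Ect2-high cells and above all 8 Ect2-low cells. The 10 CPM line for Ect2 therefore did not separate cells by the presence of any 1 other gene of these lists. Cycle genes outside the lists are not covered by this statement.

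Genes that did separate the sides were few. There were 49 genes (0.425% of 11536 tested, 2.52% of the 1945 at 10 CPM in every Ect2-high cell) above all Ect2-low cells in N10, N21 and N24 alike. In the other direction there were 51 (0.442% of tested, 3.82% of the 1335 at 10 CPM in every Ect2-low cell). Of the 49, the median of the positive cells fell on the Ect2-low side for 43, on the Ect2-high side for 1 and between for 5. The 1 gene was Chd4, a chromatin remodeller, and those between were Psd3, Ssr3, Tbp, Ugdh and Usp7, named after their values were seen. Of the 51, it fell on the Ect2-low side for 47 and between for Atp2a2, Coq2, Uqcrb and Uqcrc2. Positive cells had 36.5 to 1332 CPM of Ect2. The Ect2-low side meant at or below the highest Ect2-low cell for the 49, and at or above the lowest for the 51. Because the genes were chosen for N10, N21 and N24 lying outside all Ect2-low cells, other cells were likely to fall on that side. These counts therefore cannot show whether positive cells resemble the Ect2-low cells.

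Timp3, an inhibitor of matrix metalloproteinases at chr10:86300412-86349505, was at 946 CPM in N10, 1091 CPM in N21 and 723 CPM in N24. Its lowest, median and highest values in Ect2-low cells were 0, 14.9 and 97.9 CPM, a log2 ratio of 5.20 (5.15 to 5.25), and positive cells reached 90.0 CPM. Rspo3, a secreted enhancer of Wnt signalling at chr10:29453106-29535867, was at 746, 383 and 12.7 CPM in N10, N21 and N24, and at most 0.178 CPM in Ect2-low cells. Znrf3, the ubiquitin ligase that R-spondins act on, was at 207, 225 and 225 CPM, against 0, 0.821 and 45.0 CPM. Ankrd28, a regulatory phosphatase subunit at chr14:31698768-31830567, was at 122, 39.8 and 97.9 CPM against at most 2.08 CPM. Tbp, the TATA-binding protein, was at 209, 140 and 128 CPM against at most 17.3 CPM. In the positive cells Rspo3 and Ankrd28 had medians of 0 and 0.039 CPM.

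**Figure D3:**
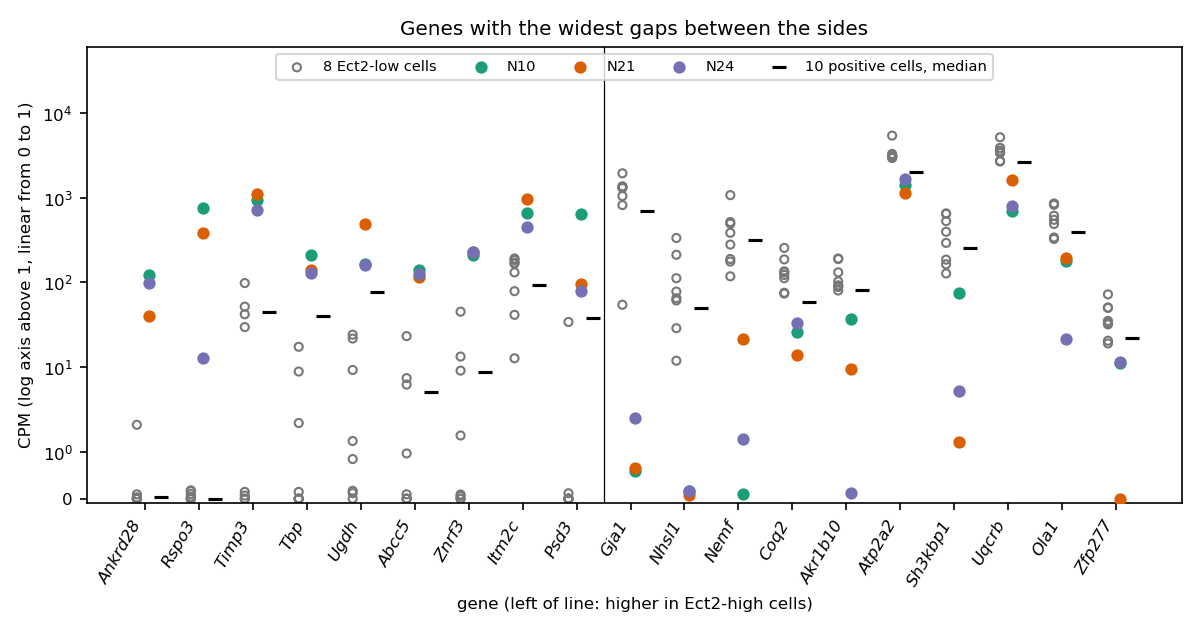
CPM of genes with the widest gaps, 9 of the 10 higher and the 10 lower in the Ect2-high cells (log axis above 1 CPM). Open circles are the 8 Ect2-low cells, coloured points the 3 Ect2-high cells, and black dashes the median of the 10 positive cells; Timp3 is at 723 to 1091 CPM in the Ect2-high cells and at most 97.9 CPM in the Ect2-low cells, and Gja1 at 0.588 to 2.49 CPM against 54.3 to 1936 CPM.

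Of the genes lower in every Ect2-high cell, Gja1, the gap junction protein connexin 43 at chr10:56377300-56390419, was at 0.588, 0.644 and 2.49 CPM in N10, N21 and N24. Ect2-low cells had 54.3, 1312 and 1936 CPM as the lowest, median and highest values, a log2 ratio of -9.74 (-10.09 to -9.42), and positive cells had 152 to 997 CPM. The lowest Ect2-low cell, N3, was also the shallowest and the one with least Tnnt2. Nhsl1, a regulator of cell migration at chr10:18317665-18533892, was at 0.16, 0.0804 and 0.172 CPM against 11.9, 71.3 and 333 CPM. Atp2a2, the calcium pump SERCA2 of the sarcoplasmic reticulum at chr5:122453513-122502225, was at 1389, 1129 and 1666 CPM against 2938, 3070 and 5394 CPM, a log2 ratio of -1.13 (-1.14 to -1.12). Positive cells had 884 to 2421 CPM, below every Ect2-low cell. Mest, an imprinted gene, was at 138, 20.9 and 340 CPM against 369 to 1691 CPM.

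Of the 51 genes, 10 belonged to the respiratory chain list, which was seen after the values were known. They were 15.4% of its 65 genes at 10 CPM in every Ect2-low cell, beside 3.82% over all such genes, and none of its genes was higher in every Ect2-high cell. Uqcrb, a subunit of complex III, was at 694, 1598 and 799 CPM in N10, N21 and N24 against 2670, 3478 and 5153 CPM. Ndufa10, of complex I, was at 10.5, 5.07 and 15.9 CPM against 23.7, 78.6 and 190 CPM. The other 8 were Ndufa6, Ndufs1, Uqcrc2, Uqcrfs1, Cox7b, Atp5c1, Atp5e and Atp5f1, and for Uqcrfs1, Atp5c1, Atp5e, Atp5f1 and Ndufa6 the gap was 1.03-fold to 1.07-fold. Etfa, which passes electrons from fatty acid oxidation to the chain, was at 111, 228 and 413 CPM against 655, 1461 and 3319 CPM. Outside the lists, and picked after their values were seen, Slc25a5, an ADP/ATP carrier, was at 5799, 3844 and 4595 CPM against 6554 to 11154 CPM, and Dld, of the pyruvate dehydrogenase complex, at 426, 458 and 621 CPM against 670 to 1816 CPM.

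Over the whole lists, the median log2 ratio of respiratory chain genes was -0.90, with an interval over genes of -1.02 to -0.76. Of its 78 genes, 0 were at least 2-fold higher and 32 (41.0%) lower, next to 26.3% and 38.3% of all genes tested, so the share lower was near that of all genes. Their sums were 48207, 66446 and 52039 CPM in N10, N21 and N24, all below the 68977 to 113624 CPM of the Ect2-low cells, and positive cells had 64665 to 111119 CPM. Fatty acid oxidation had a median of -1.23 (-2.18 to -0.96), with 0 of 27 higher and 18 (66.7%) lower, and sums of 4189, 5511 and 6220 CPM against 8472 to 15815 CPM. Positive cells had 4434 to 14143 CPM of these genes, so N21 and N24 lay inside that range and N10 below it. Acadm, the medium-chain dehydrogenase, was at 212, 614 and 133 CPM against 441 to 1573 CPM, so N21 overlapped. Each Ect2-high cell alone gave a negative median for fatty acid oxidation, at -2.06 for N10, -1.61 for N21 and -1.72 for N24. For the respiratory chain these were -1.06, -0.51 and -1.18. Over all genes tested the same single-cell medians were -1.61, -2.52 and -1.80. By this measure, 1 cell against 8 summed cells, the respiratory chain lay above the median gene in each cell. Fatty acid oxidation lay below it in N10 alone. Counted gene by gene against the Ect2-low median, both lists were mostly lower. Respiratory chain genes below and above it numbered 70 and 7 in N10, 57 and 20 in N21, and 76 and 1 in N24. For fatty acid oxidation these were 24 and 2, 19 and 7, and 24 and 2. Over all 11536 genes they were 4575 and 4577, 4918 and 3977, and 4559 and 4653. With the cells split by any Ect2 read, 8 against 3, the medians were -0.20 for fatty acid oxidation and 0.079 for the respiratory chain, beside 0.91 over all genes. Glycolysis genes had a median of -0.13 with 4 of 27 higher and 5 lower, and ribosomal protein genes -0.19.

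Muscle genes were not lower as a set in every cell. The sarcomere list had a median of -0.50, beside -0.32 over all genes, with 3 of 32 genes (9.38%) at least 2-fold higher and 7 (21.9%) lower, next to 26.3% and 38.3% of all genes. Its sums were 48891, 51503 and 27972 CPM in N10, N21 and N24. N24 was below the 36816 CPM of the lowest Ect2-low cell and inside the 25665 to 67379 CPM of the positive cells, and N10 and N21 were inside both ranges. In N24 the lower genes were Tnni3, Myl4 and Des (troponin I, an embryonic light chain and desmin), at 150, 19.7 and 5.19 CPM, against at least 344, 50.4 and 79.3 CPM in Ect2-low cells. Ankrd1, a stretch-responsive titin partner, went the other way, at 12117, 7084 and 2485 CPM against 403 to 3367 CPM. Calcium handling genes summed to 4825, 8232 and 6114 CPM against 11482 to 17135 CPM in Ect2-low cells, with Atp2a2 and Gja1 as the 2 genes lower without overlap. Positive cells had 5766 to 12316 CPM, with a median of 8176 CPM, so N21 and N24 lay inside that range and N10 below it. Pln, phospholamban, the inhibitor of SERCA2, was at 354, 1664 and 3003 CPM against 2595 to 7898 CPM, so N24 overlapped. Ryr2, the calcium release channel, was at 0.16 CPM in N10, 123 CPM in N21 and 305 CPM in N24 against 77.1 to 489 CPM.

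**Figure D4:**
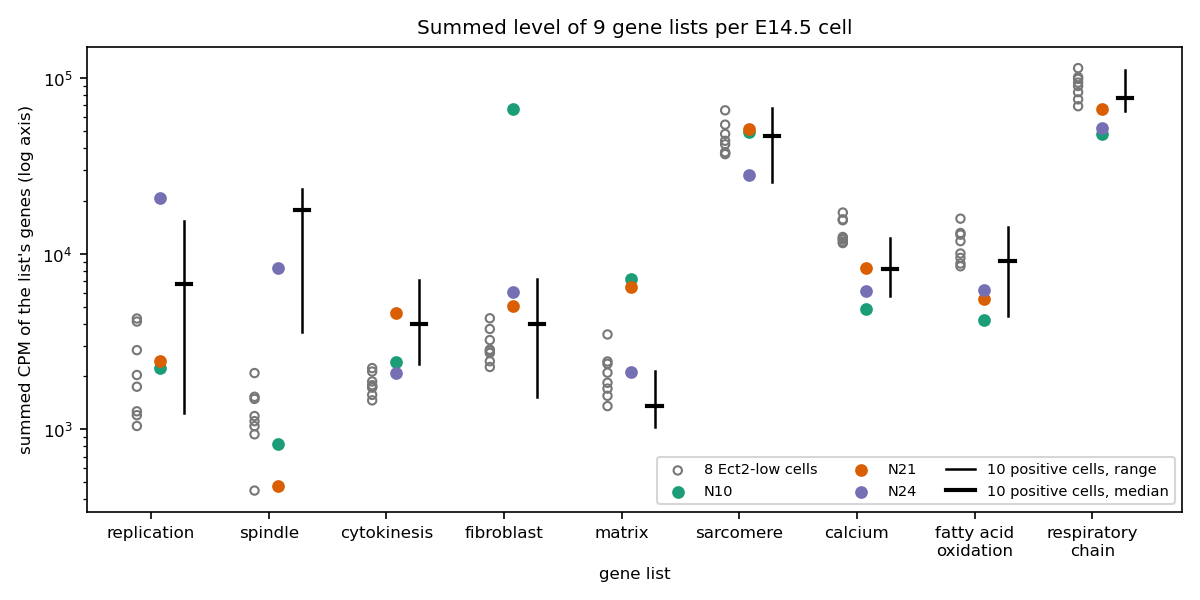
Summed CPM of the genes of 9 lists in each cell, on a log axis. Open circles are the 8 Ect2-low cells, coloured points the Ect2-high cells, and black bars the range and median of the 10 positive cells; N24 leads the replication and spindle sums, N10 the fibroblast sum, and all 3 Ect2-high cells lie below the open circles for calcium handling, fatty acid oxidation and respiratory chain.

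Sums of matrix and signalling genes were above the Ect2-low range in N10 and N21 and inside it in N24. Basement membrane and matrix genes summed to 7166, 6459 and 2111 CPM in N10, N21 and N24 against 1356 to 3469 CPM in Ect2-low and 1037 to 2161 CPM in positive cells. The list had a median of 1.49, with 19 of 35 genes (54.3%) at least 2-fold higher and 0 lower, next to 26.3% and 38.3% of all genes. Fbn2, a microfibril protein, was at 467, 1487 and 204 CPM against 0, 113 and 619 CPM, and Lama2, a laminin chain, at 228, 644 and 0.0858 CPM against 0, 53.1 and 102 CPM. TGF-beta and BMP genes summed to 10687, 7388 and 3025 CPM against 932 to 4091 CPM. Positive cells had 953 to 2680 CPM, so all 3 Ect2-high cells, N24 among them, lay above that range. In N24, 16 genes of this list were above the Ect2-low median and 7 below it, beside 4653 and 4559 over all genes. Their median was 2.11, with 19 of 27 (70.4%) higher and 6 (22.2%) lower, beside the same shares of all genes. Id2, a target of BMP signalling, was at 3773, 1217 and 459 CPM against 7.04 to 1758 CPM, and the receptor gene Bmpr1a at 224, 1167 and 92.2 CPM against 28.4 to 246 CPM. Ctgf, a matricellular protein and Yap target, was at 316, 2304 and 664 CPM against 0.119, 83.9 and 1152 CPM. Without N10 the medians were 0.24 for matrix and 0.66 for TGF-beta and BMP, beside -0.76 over all genes.

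The remaining lists gave no uniform difference, and their counts stand beside 26.3% higher and 38.3% lower over all genes. CDK inhibitor and quiescence genes had a median of 0.62, with 9 of 22 higher and 5 lower, and -1.33 without N24. The all-gene median without N24 was -0.75. Cardiac transcription factors had a median of -0.36 with 9 of 28 higher and 10 lower. Immediate early and heat shock genes, which respond to handling, had a median of -0.06 with 6 of 29 higher and 6 lower, and sums of 30072, 18276 and 16998 CPM inside the 6933 to 35931 CPM of the Ect2-low cells. DNA damage and p53 target genes had a median of 0.28, imprinted growth genes -0.32, growth factor receptors -0.78 and replication-linked histones 0.06.

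Cell titles fall into numbers 1 to 10 and 21 to 30, which the labels do not explain, and N10 is in the first range, N21 and N24 in the second. Within 1 to 10 (N10 against N3, N5, N7 and N8) the cycle medians had the opposite sign, at -5.56 for DNA replication and -5.66 for spindle genes. Fatty acid oxidation and the respiratory chain were at -1.89 and -0.996 there, beside an all-gene median of -1.22. By this measure the respiratory chain was not below the median gene. Within 21 to 30 (N21 and N24 against N23, N25, N28 and N30) the cycle medians were 1.60 for DNA replication and 4.99 for spindle genes, the fibroblast median was 0.37 and the matrix median 0.23. Fatty acid oxidation and the respiratory chain were at -1.37 and -0.87, beside an all-gene median of -0.51. What the title numbers stand for cannot be told apart from the single Ect2-high cell in the first range.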

How the data were processed

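Reads were counted per gene in 33 single cells. The authors deposited raw counts, and per the submitters' processing notes CASAVA 1.8.2, STAR 2.4.0j, HTSeq 0.6.1p1 and the build mm10 were used. Their order, the annotation and any use of strand or molecular identifiers are not given in the sources used here. Without strand, overlapping and antisense genes cannot be told apart. Per the labels' protocols, each cell's mRNA was turned into cDNA, and per the series' design text it was amplified as antisense RNA, before a TruSeq library. Reads are therefore copies, not independent molecules.

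The table holds 14862 rows. Of these, 22 had been turned into calendar dates and were kept in totals only. Counts were divided by the cell's total to give CPM. For each side, counts were summed and compared as a log2 ratio with an exact (Clopper-Pearson) 95% interval, which covers counting error only. Genes with at least 10 counts over both sides were tested for size (11536), with 0.5 count added for list medians. Called means at least 2-fold. Intervals of medians are order statistics over genes. With 1 sample a side, there was no test. Python 3.11.15, numpy 2.4.6, pandas 2.3.3, scipy 1.17.1 and matplotlib 3.10.9 were used, and R 4.3.3 with edgeR 4.0.16 and DESeq2 1.42.0 gave scaling factors for the alternatives.

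The split, the 28 gene lists (883 genes) and the rule for other named genes were chosen with earlier results of these data known. Named besides list genes are, per Ect2-high cell, the 8 genes furthest above the highest Ect2-low cell with at least 50 CPM, the 4 furthest below the lowest, and the 10 widest gaps each way, on CPM + 1. Date rows and predicted genes were left out, and not every gene so chosen is printed, some of them because they are not reported here. Sequences and positions are from RefSeq (GRCm38.p6, the same coordinates as mm10), matched by symbol or synonym. On counts simulated from these cells' means and totals (14840 genes, 200 changed), 95.0% of changed genes were recovered to within 0.1 on the log2 scale, and 95.5% of their intervals held the true value. That simulation held counting error only. Across the 11 cells, 50.1% of values were 0, and 11.0% of the values above 0 rested on 1 to 3 reads. No library was held by 2 cells, since the highest Pearson r across genes between any pair, N5 and N8, was 0.755 on log2(CPM + 1). Alternatives were edgeR TMM and DESeq2 factors, equal weights, thinning to 5.99 M, count minimums of 1 and 100, totals without the 20 most abundant genes, other Ect2 thresholds, the title ranges and leaving out each cell.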

Additional observations from a re-analysis of the deposited data

Results flagged for a closer look

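Among the 8 Ect2-low cells, 4 of the 28 list sums had 1 cell set apart from the others by Dixon's 95% limit. The limit flags about 1 in 20 groups by chance only where values are normally distributed. Several of these sums were at or near 0 in most cells, so 4 of 28 cannot be read as an excess. N30 had the highest sum of mitotic cyclins and kinases, at 1718 CPM, with 909 CPM in the next cell. N28 had 33.7 CPM of leukocyte markers, nearly all from Lyz2, next to 0.240 CPM. N5 had 18.3 CPM of neural crest and Schwann markers, next to 4.80 CPM. N8 had 0.0802 CPM of red blood cell markers, which is a single read, and the others had none, so the limit was bound to flag it. The Ect2-high cells, at 3, were too few for this limit.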

How the results depend on the processing

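Of 442 values under alternatives, 382 were labelled the same, 49 moved and 11 reversed, and the cause was not tested. A median was labelled the same if it stayed inside the main interval over genes, whatever its sign. It was labelled reversed only if the main median was at least 1 in size. Some medians labelled the same thus changed sign, such as calcium handling, from -0.69 to 0.50 when split by any Ect2 read. No paired analysis was possible because the result comes from no test and cell numbers follow accession order. Leaving out 1 cell gave 2643 to 3247 genes at least 2-fold higher, 4153 to 5317 lower, 54 to 239 higher without overlap and 52 to 129 lower without overlap, each against all remaining cells. Without N24 these last 2 counts were 239 and 129. List medians ran from -2.46 to 1.798 for G1 cyclins, -1.33 to 0.88 for CDK inhibitors, -5.82 to 1.50 for licensing, -4.43 to 1.77 for replication, -4.30 to 1.69 for mitotic cyclins and -5.74 to 7.06 for spindle genes, with the lowest value of these 6 without N24. They ran from -0.54 to 0.44 for cytokinesis, -0.84 to -0.28 for sarcomere, -0.88 to -0.30 for calcium handling and -1.28 to 0.02 for cardiac transcription factors, with the lowest of these 4 without N21. They ran from -0.50 to 9.25 for fibroblast, 0.24 to 1.74 for matrix and 0.66 to 2.54 for TGF-beta genes, with the lowest of these 3 without N10. For fatty acid oxidation they ran from -1.81 to -1.12, for the respiratory chain from -1.11 to -0.85 and for all genes from -0.76 to -0.24.

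Splitting by any Ect2 read put 8 cells on the first side, and gave 5621 genes higher and 1900 lower (74.7% of calls higher, 40.7% at 10 CPM) and medians of 0.91 for all genes, 4.86 for licensing, 4.92 for replication, 1.32 for cytokinesis, 0.37 for sarcomere, -0.20 for fatty acid oxidation and 0.079 for the respiratory chain. The all-gene median was -0.20 with TMM, -0.020 with DESeq2 factors, -0.27 at 100 counts, -0.26 at 1 count and -0.38 with totals without the 20 most abundant genes. DESeq2 factors gave -0.93 for fatty acid oxidation and -0.60 for the respiratory chain, and equal weights and thinning gave the latter -0.75. Titles 21 to 30 gave medians of -0.51 for all genes, 0.37 for fibroblast and 0.23 for matrix. Titles 1 to 10 gave -1.22 for all genes, -5.47 for G1 cyclins, -6.36 for licensing, -5.56 for replication, -5.47 for mitotic cyclins, -5.66 for spindle, -1.48 for CDK inhibitors, -0.84 for sarcomere, -2.13 for calcium handling and -2.32 for cardiac transcription factors. A 4-fold limit gave 362, 356 and 312 genes of N10, N21 and N24 above all Ect2-low cells, and 100 of N10 below them.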

Other observations

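Reads of genes near private to 1 Ect2-high cell appeared at trace level in other cells, which was seen after the values were known. N24 had 6 genes at 100 CPM or more that stayed below 10 CPM in the other 20 E14.5 cells. All 6 had a read in N25, 5 had one in N28 and 2 had one in N8. The sums were 1.25, 0.523 and 3.13 CPM in N25, N28 and N8, next to 1312 CPM in N24, and none of the 6 had a read in N3, N5, N7, N23 or N30. N21 had 11 such genes, with a read for 8 of them in N23 (0.738 CPM summed, next to 4097 CPM), for 3 in N8 (1.44 CPM), for 2 in N30 (2.97 CPM), for 1 in N10 (5.50 CPM) and for at most 1 in each of the other 6 negative cells. N10 had 31, with a read for 14 in N30 (8.24 CPM summed, next to 54439 CPM), 4 in N21 (2.90 CPM), 3 in N25 (1.96 CPM) and at most 1 in each of the other 7 negative cells. Ect2 itself stood at 0.0445 to 0.178 CPM in the Ect2-low cells that had a read. The source of these reads was not tested.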
